A study of Mus musculus with 16 samples.

Results

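The urea cycle and ammonia entry genes were followed through RNA sequencing of mouse liver. The group holds the 10 genes Cps1, Otc, Ass1, Asl, Arg1, Nags, Slc25a15, Slc25a13, Gls2 and Glud1, chosen by symbol, and each had 1 row among the 30463 genes of the authors' deposited table. The samples were whole livers of wild-type C57BL/6N mice aged 14 weeks, 16 in all. The 4 groups of 4 were diethylnitrosamine (DEN, a liver carcinogen) with a diet labelled 60% high fat, vehicle with high fat diet, DEN with control diet, and vehicle with control diet. Injections were given at 2 weeks of age and the diet changed at 6 weeks, per the labels. The labels do not say that each sample is a separate animal, so the spread behind the authors' p-values may be partly technical. Which of the 16 samples entered the authors' comparison is not known here.

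The values come from a comparison that the authors made and deposited without naming its sides. A log2 fold change above 0 is therefore taken to mean a higher level on the positive side, and a value below 0 a lower level there than on the negative side. The 16 columns of single libraries carry codes that match no sample label, so no value per sample could be given, and each error is the authors' standard error (SE) over their libraries. The authors' mean normalized counts summed to 20403653 over all genes.

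The liver turns ammonia, a toxic product of amino acid breakdown, into urea, mostly in hepatocytes near the portal vein. Ammonia enters in mitochondria, where glutaminase and glutamate dehydrogenase release it, and carbamoyl phosphate synthetase joins it to bicarbonate once N-acetylglutamate is bound. Ornithine transcarbamylase then forms citrulline, which leaves the mitochondrion for the cytosol, where a second nitrogen arrives with aspartate and arginase finally splits off urea and gives back ornithine.

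Of the 10 genes, 6 were called at an adjusted p below 0.05 per the authors' deposited table, and all of those 6 (Cps1, Gls2, Ass1, Arg1, Slc25a15 and Asl) were lower on the positive side. The other 4 (Otc, Nags, Glud1 and Slc25a13) were not called, and 0 were called positive. Over all 16288 genes with an adjusted p, 2.90% were called negative and 3.67% positive per the authors' deposited table. All members were abundant, and abundant genes were called more often. Among the 2469 genes whose mean normalized count reached 1000, 5.51% were called negative and 5.55% positive. The members' median log2 fold change was -0.57, beside -0.0044 for all tested genes and -0.021 for those abundant genes. The members had been chosen with earlier results of these data known.

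**Figure D1:**
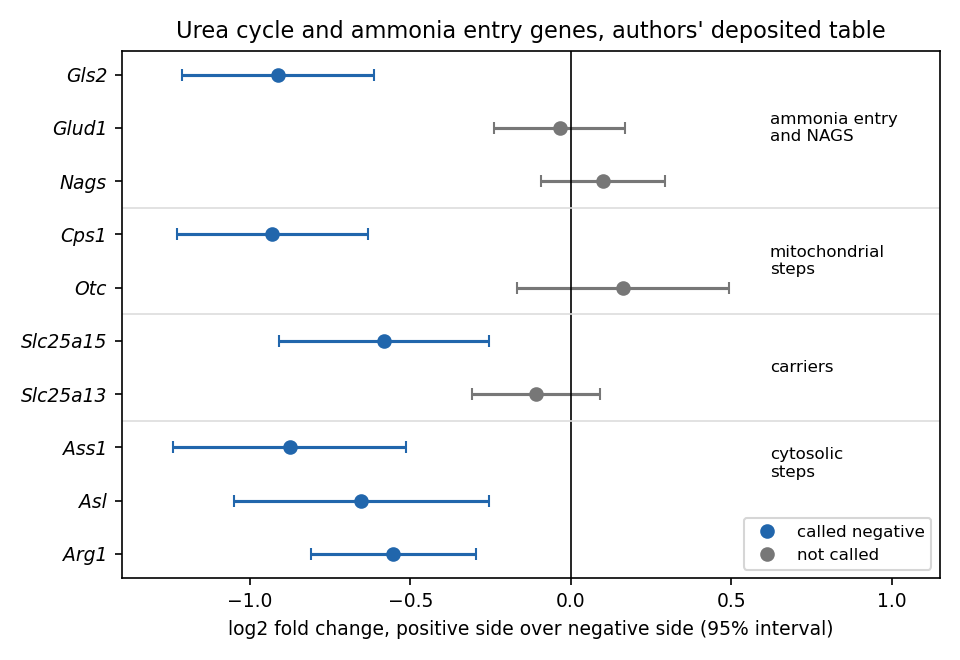
Log2 fold change (positive side over negative side) of the 10 genes per the authors' deposited table, with 95% intervals from the authors' SE, ordered by step of the pathway. The 6 blue points, Cps1, Gls2, Ass1, Asl, Slc25a15 and Arg1, lie between -0.93 and -0.55, and the 4 grey points lie between -0.11 and 0.16.

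The promoters shown are those of Ass1 and Slc25a15, which were called, and of Otc and Nags, which were not. They are shown because the called genes lay lower together while Otc and Nags did not. Entries were found for 6 of the 10 members in the RefSeq promoter table (build GRCm38.p6), and Cps1, Asl, Arg1 and Gls2 are named only. Glud1, an uncalled member, had an entry, but its window began inside annotated protein-coding exon and was not read. Each run ends just before the RefSeq start of transcription, except that of Ass1, which ends 63 bases before it so as to leave out annotated exon. Ass1 was read at chr2:31470020-31470206 (plus strand), Slc25a15 at chr8:22398622-22398871 (minus), Otc at chrX:10252055-10252304 (plus) and Nags at chr11:102145263-102145512 (plus). Capitals mark matches, on either strand, to 6 motifs. They included TATAAA for the classical core promoter box, CCAAT for the box of that name and GGGCGG for the GC box. They also included TGACG for the core of the cyclic AMP response element and TTNNGNAA for sites of the C/EBP family. The last was AGAACA, which is only a part of the glucocorticoid receptor site.
Ass1: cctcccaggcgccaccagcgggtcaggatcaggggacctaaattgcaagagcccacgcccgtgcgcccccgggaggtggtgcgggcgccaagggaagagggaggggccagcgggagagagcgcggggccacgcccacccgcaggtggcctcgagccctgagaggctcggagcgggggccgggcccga
Slc25a15: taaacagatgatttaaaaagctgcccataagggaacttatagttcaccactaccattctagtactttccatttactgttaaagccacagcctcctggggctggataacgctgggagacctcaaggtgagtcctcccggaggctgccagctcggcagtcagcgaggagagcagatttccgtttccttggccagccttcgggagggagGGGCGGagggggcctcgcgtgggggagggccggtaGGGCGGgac
Otc: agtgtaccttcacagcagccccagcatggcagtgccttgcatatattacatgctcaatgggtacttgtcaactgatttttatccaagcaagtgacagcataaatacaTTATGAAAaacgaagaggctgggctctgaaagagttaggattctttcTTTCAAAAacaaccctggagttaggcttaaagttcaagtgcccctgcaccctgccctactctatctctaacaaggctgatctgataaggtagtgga
Nags: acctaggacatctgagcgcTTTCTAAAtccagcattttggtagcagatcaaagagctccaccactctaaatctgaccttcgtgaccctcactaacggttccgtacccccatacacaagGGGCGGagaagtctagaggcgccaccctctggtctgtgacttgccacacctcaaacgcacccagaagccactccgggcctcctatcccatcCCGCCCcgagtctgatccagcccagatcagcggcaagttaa

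The Slc25a15 window held 2 GC boxes, starting 44 and 9 bases before the start, and the Nags window also held 2, at 132 and 41 bases. The C/EBP letters occurred 2 times in the Otc window and 1 time in the Nags window. The Ass1 window, 187 bases long, held none of the 6 motifs. The window of Slc25a13, an uncalled member, was also read but is not shown. It held a CCAAT box and a cyclic AMP element core, starting 22 and 13 bases before the start. Among all 32851 promoter entries, 250 bases long, the share with a match was 12.4% for TATAAA and 33.8% for CCAAT. It was 32.7% for the GC box, 17.8% for the cyclic AMP element core, 36.8% for C/EBP and 16.1% for AGAACA. No match of 1 motif overlapped that of another in the sequences shown. These matches are letters in a window and describe no binding.

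Ammonia entry was split between its enzymes. Gls2 (ENSMUSG00000044005, chromosome 10 from 128194457 to 128210004 in GRCm38, plus strand) encodes the liver-type glutaminase, which frees ammonia from glutamine. In the authors' deposited table its log2 fold change was -0.91 ± 0.15 (SE, adjusted p = 5.9e-07), so its level on the positive side was 53.1% of that on the negative side (95% interval 43.1 to 65.3). Glud1 (ENSMUSG00000021794, chromosome 14 from 34310727 to 34345265, plus strand) encodes glutamate dehydrogenase, which frees ammonia from glutamate. Its log2 fold change came to -0.035 ± 0.10 (SE, adjusted p = 0.905) per the authors' deposited table, with a 95% interval from -0.24 to 0.17. That interval does not reach the value of Gls2 or of any other called member. The last 97 bases of Gls2 overlap Spryd4 on the opposite strand, and Spryd4 stood at 0.025 ± 0.078 (log2, SE, adjusted p = 0.911) per the authors' deposited table.

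Cps1, of the first committed step, was called lower on the positive side, and Nags, whose enzyme makes the activator, was not called. Cps1 (ENSMUSG00000025991, chromosome 1 from 67123026 to 67231259, plus strand) encodes carbamoyl phosphate synthetase and had the smallest p of the group, in place 53 among all tested genes of the authors' deposited table. Per the authors' deposited table its log2 fold change came to -0.93 ± 0.15 (SE, adjusted p = 2.9e-07), with a level on the positive side of 52.5% of that on the negative side (95% interval 42.7 to 64.5). Nags (ENSMUSG00000048217, chromosome 11 from 102145513 to 102149477, plus strand) encodes the enzyme that makes N-acetylglutamate, the obligate activator of carbamoyl phosphate synthetase. It stood at 0.10 ± 0.098 (log2, SE, adjusted p = 0.643) per the authors' deposited table, with a 95% interval from -0.093 to 0.29. Gm11586, an antisense gene inside Nags, had a mean normalized count of 1.66 there. Libraries came from a stranded kit per the labels' protocols, but the strand setting of the counting is not stated in the sources used here.

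Otc, which uses the product of Cps1, did not share its value. Otc (ENSMUSG00000031173, chromosome X from 10252305 to 10321024, plus strand) encodes ornithine transcarbamylase. Per the authors' deposited table its log2 fold change came to 0.16 ± 0.17 (SE, adjusted p = 0.664), and its level on the positive side was 112.0% of that on the negative side (95% interval 89.1 to 140.7). It was the only one of the 5 cycle enzymes that was not called.

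The carriers that join mitochondrion and cytosol differed in their calls. Slc25a15 (ENSMUSG00000031482, chromosome 8 from 22375551 to 22398597, minus strand) exchanges ornithine for citrulline. In the authors' deposited table it stood at -0.58 ± 0.17 (log2, SE, adjusted p = 0.0143). Slc25a13 (ENSMUSG00000015112, chromosome 6 from 6041218 to 6217173, minus strand) encodes citrin, which exports aspartate for the cytosolic part of the cycle. It stood at -0.11 ± 0.10 (log2, SE, adjusted p = 0.624) per the authors' deposited table, with a 95% interval from -0.31 to 0.091.

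All 3 cytosolic enzymes were called lower on the positive side, as were 3 of the 7 mitochondrial members. Ass1 (ENSMUSG00000076441, chromosome 2 from 31470207 to 31520672, plus strand) joins citrulline to aspartate. Per the authors' deposited table its log2 fold change came to -0.88 ± 0.18 (SE, adjusted p = 0.00019), a level on the positive side of 54.5% of that on the negative side (95% interval 42.4 to 70.0). Asl (ENSMUSG00000025533, chromosome 5 from 130011258 to 130029247, minus strand) splits argininosuccinate into arginine and fumarate. It stood at -0.65 ± 0.20 (log2, SE, adjusted p = 0.0269) per the authors' deposited table, the widest SE of the group. Arg1 (ENSMUSG00000019987, chromosome 10 from 24915221 to 24927484, minus strand) encodes liver arginase. It stood at -0.55 ± 0.13 (log2, SE, adjusted p = 0.00153) per the authors' deposited table, with a level of 68.2% of the negative side's (95% interval 57.0 to 81.5).

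Not every call was equally firm. The authors' deposited statistics were divided by their median absolute deviation, scaled to match a normal standard deviation, which was 1.44. Of the 10 genes, 2 (Cps1 and Gls2) were then called. With Bonferroni adjustment instead, 3 were called, Ass1 being the third. Both settings are stricter for every gene of the table, and the share of all tested genes called under them was not counted. The calls of Asl and Slc25a15 were lost under 5 of 10 alternative settings, among them removal of a trend on GC content, length and abundance from the statistics of the authors' deposited table (adjusted p = 0.0917 for Asl and 0.0557 for Slc25a15). The log2 fold changes after that removal were -0.55 for Asl and -0.49 for Slc25a15, beside -0.65 and -0.58 as deposited by the authors.

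**Figure D2:**
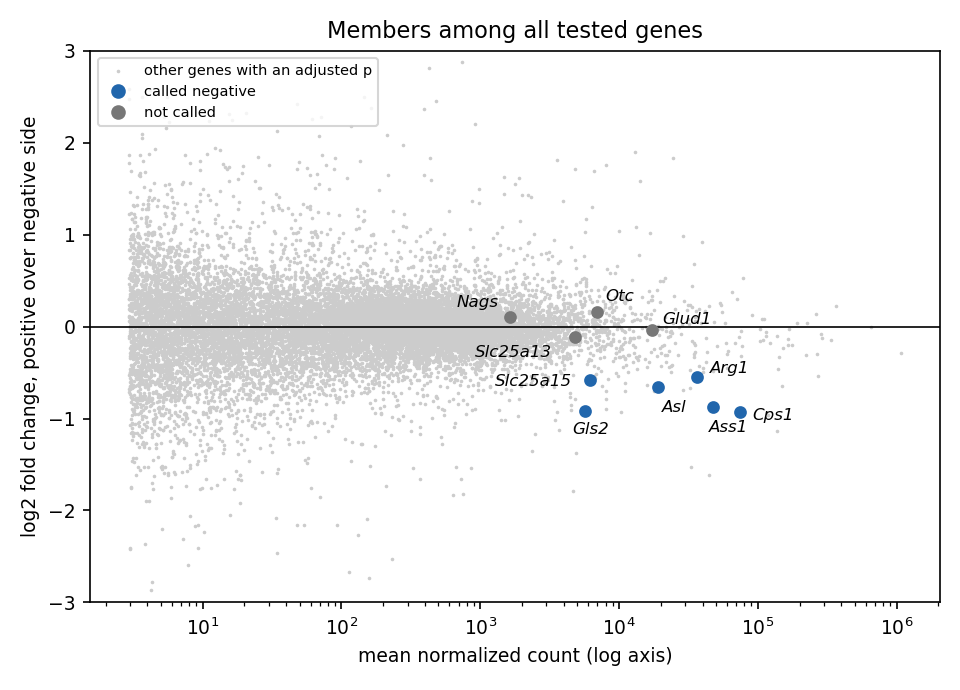
Log2 fold change (positive over negative side) against mean normalized count on a log axis for 16270 of the 16288 tested genes of the authors' deposited table, the other 18 lying beyond the axis limit of 3. The called members (blue) lie below 0 at counts from 5710 (Gls2) to 74627 (Cps1), and the uncalled ones (grey) lie close to 0.

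The members were then compared with each other. Their estimates share libraries and the correlation of their errors is unknown, so each difference was given the widest error that any correlation allows, the sum of both SEs. This comparison was added after the values had been seen. Of 45 pairs, 21 had a 95% interval of the difference that left out 0, and 7 did when the intervals were widened for 45 pairs. Each of those 21 pairs set a called member against an uncalled one. Cps1 minus Otc was -1.09 (log2), with an interval from -1.72 to -0.47, or -2.14 to -0.050 when widened for all pairs. Cps1 minus Nags was -1.03, with an interval from -1.52 to -0.54, or -1.85 to -0.21 when widened. Otc minus Ass1 was 1.04, with an interval from 0.35 to 1.73, which took in 0 when widened (-0.11 to 2.19). Gls2 minus Glud1 was -0.88, from -1.38 to -0.38, or -1.72 to -0.041 when widened.

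Slc25a13 was the least separated of the uncalled genes. Its interval left out 0 against Cps1, Gls2 and Ass1 and took in 0 against Asl, Arg1 and Slc25a15. Otc, Nags and Glud1 each differed from all 6 called genes by the unwidened interval. Within the 6 called genes no pair had an interval that left out 0, which does not show that they moved by equal amounts.

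**Figure D3:**
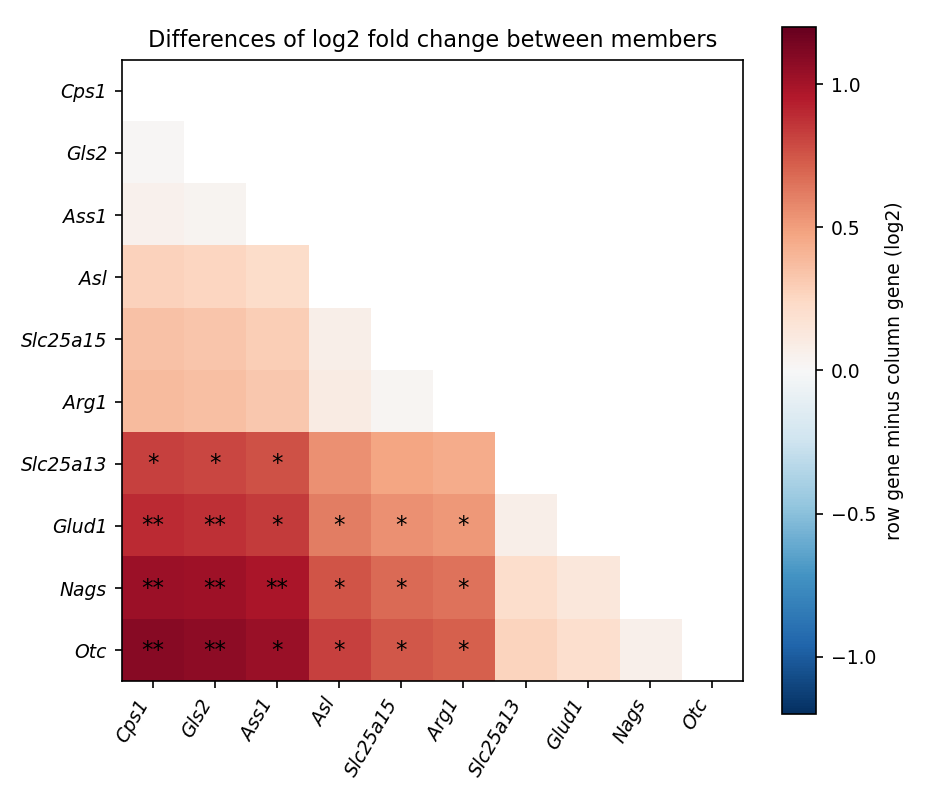
Difference of log2 fold change, row gene minus column gene, for the 45 pairs of members. One star marks the 21 pairs whose widest 95% interval leaves out 0 and a double star the 7 that still do when widened for 45 pairs, and all stars lie where an uncalled row meets a called column.

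In level, a few members carried most of the group's counts. The 10 mean normalized counts summed to 221163, or 1.08% of the counts of all genes per the authors' deposited table. Cps1, Ass1 and Arg1 held 72.0% of that sum and the 6 called genes 86.1%. Per kb of exon, Ass1 stood highest with a mean normalized count of 19850, followed by Arg1 with 16497 and Cps1 with 13434. Glud1 had 4131 per kb and Asl 3963. Gls2 and Otc lay next to each other at 1644 and 1643 per kb, and Slc25a13 had 1262 and Slc25a15 had 1103. Nags was lowest at 581 per kb, 34.2 times below Ass1.

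These levels are means over the authors' samples, with no spread given, so neighbours in the order cannot be told apart by a test. With the longest transcript in place of all exons, Asl (7933 per kb) came before Glud1 (5130) and Otc (2325) before Gls2 (2219), and the other 6 kept their places. Otc held 3.76% of the counts of the 5 cycle enzymes.

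Members stood far above close relatives that serve other tissues or compartments. Arg1 had a mean normalized count of 16497 per kb and Arg2, the mitochondrial arginase, had 4.35, a ratio of 3792. Slc25a15 had 1103 per kb and Slc25a2, another ornithine carrier, had 0.825, with no adjusted p for Slc25a2 per the authors' deposited table. Cps1 had 13434 per kb and Cad, whose product makes carbamoyl phosphate for pyrimidines, had 54.9.

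Of these relatives, 3 had an adjusted p, and 1 was called negative per the authors' deposited table, Slc25a12 at -0.44 ± 0.082 (log2, SE, adjusted p = 1.3e-05). Slc25a12, also known as aralar, is the aspartate and glutamate carrier of brain and muscle, and its relative Slc25a13 had 1262 counts per kb while Slc25a12 had 78.8. Arg2 stood at -0.061 ± 0.53 and Cad at -0.076 ± 0.34 (log2, SE), with adjusted p of 0.972 and 0.939 per the authors' deposited table. The share called negative over all tested genes was 2.90%.

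**Figure D4:**
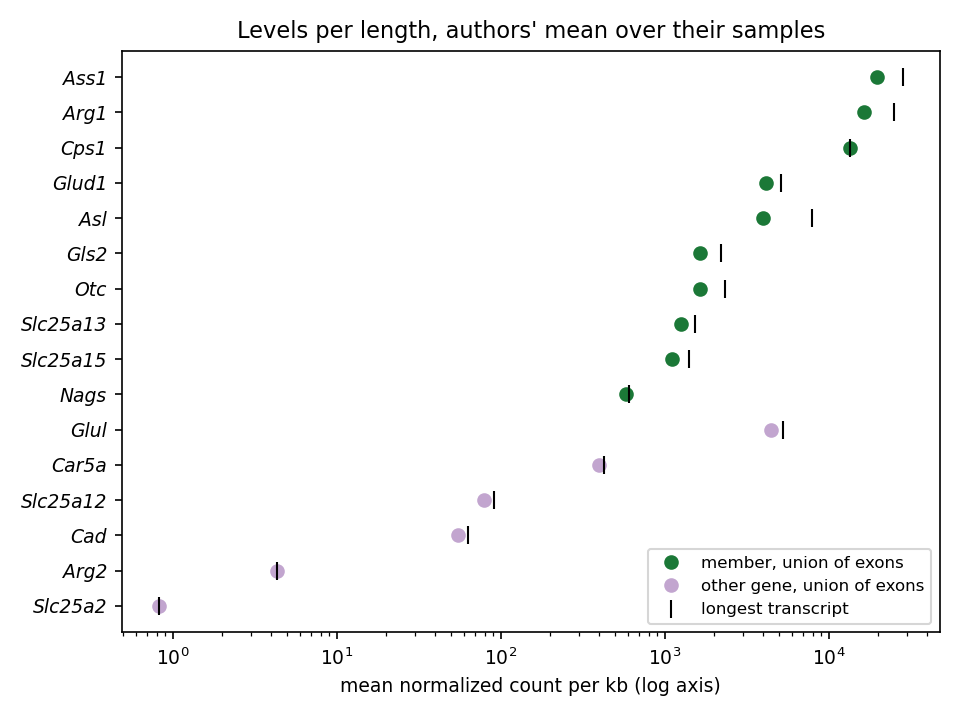
Mean normalized count per kb on a log axis, from the authors' deposited table, with dots for the union of exons and ticks for the longest transcript. The members (green) run from 19850 for Ass1 to 581 for Nags, while the relatives Slc25a12, Cad, Arg2 and Slc25a2 (light) lie below 100.

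Nitrogen reaches the cycle from transaminases and ammonia-releasing enzymes. Of 26 tested genes of that list, 8 were called negative and 2 positive per the authors' deposited table, where 2.90% and 3.67% of all tested genes were, and the median log2 fold change was -0.24. Tat, tyrosine aminotransferase, stood at -1.53 ± 0.23 (log2, SE, adjusted p = 1.2e-08) per the authors' deposited table. Got1, the cytosolic aspartate aminotransferase, stood at -1.79 ± 0.30 (log2, SE, adjusted p = 4.1e-07), and Hal, which releases ammonia from histidine, at -1.13 ± 0.24 (adjusted p = 0.00018), both per the authors' deposited table. Agxt2, a mitochondrial aminotransferase, was called positive per the authors' deposited table at 0.45 ± 0.081 (log2, SE, adjusted p = 4.8e-06). The alanine aminotransferase gene Gpt2 and Ftcd, of histidine breakdown, were not called, at 0.086 ± 0.16 and -0.028 ± 0.16 (log2, SE, adjusted p = 0.838 and 0.955) per the authors' deposited table.

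Carriers of amino acids, ammonia and urea gave 3 genes called negative and 1 positive of 16 tested (median -0.33) per the authors' deposited table. Those are 18.8% and 6.25%, beside 2.90% and 3.67% of all tested genes and 5.51% and 5.55% of the abundant ones. Slc7a2, which carries arginine and other cationic amino acids, stood at -0.89 ± 0.22 (log2, SE, adjusted p = 0.00219) per the authors' deposited table. The amino acid transporter genes Slc38a4 and Slc43a1 stood at -0.43 ± 0.11 (adjusted p = 0.00368) and -0.80 ± 0.26 (adjusted p = 0.0403), log2 with SE, per the authors' deposited table. Aqp8, a water channel that also passes ammonia, was called positive at 1.84 ± 0.27 (log2, SE, adjusted p = 1.2e-08) per the authors' deposited table. Slc38a3, a glutamine transporter, stood at -0.25 ± 0.15 (adjusted p = 0.380), and Aqp9, which passes urea and glycerol, at 0.14 ± 0.19 (adjusted p = 0.767), neither called per the authors' deposited table (log2, SE).

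Mitochondrial carbonic anhydrases and sirtuins were looked at beside Cps1. Of all tested genes 3.67% were called positive. Sirt5, a mitochondrial deacylase known to act on carbamoyl phosphate synthetase in mice, was called positive at 0.64 ± 0.10 (log2, SE, adjusted p = 1.6e-07) per the authors' deposited table, 1 of 5 genes on its list and the only one called. Car5a, the mitochondrial carbonic anhydrase that supplies bicarbonate, was not called at 0.095 ± 0.21 (log2, SE, adjusted p = 0.867), nor was Sirt3 at 0.068 ± 0.098 (adjusted p = 0.779), per the authors' deposited table.

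Genes that use arginine and ornithine in other ways had a median log2 fold change of 0.21. Beside 3.67% of all tested genes and 5.55% of the abundant ones, 1 of 15 (6.67%) was called positive per the authors' deposited table. That gene was Ddah1, which breaks down methylarginines, at 1.34 ± 0.16 (log2, SE, adjusted p = 8.2e-15) per the authors' deposited table. Agmat and Gamt, of the agmatine and creatine branches, were not called at 0.23 ± 0.11 and 0.30 ± 0.21 (log2, SE, adjusted p = 0.208 and 0.466) per the authors' deposited table.

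Among 17 regulators of the pathway, 2 were called negative and 1 positive per the authors' deposited table (median -0.18). Those are 11.8% and 5.88%, beside 2.90% and 3.67% of all tested genes and 5.51% and 5.55% of the abundant ones. Klf15, a transcription factor that controls amino acid breakdown genes in mouse liver, stood at -0.79 ± 0.21 (log2, SE, adjusted p = 0.00686) per the authors' deposited table. The coactivator gene Ppargc1a stood at -1.30 ± 0.22 (log2, SE, adjusted p = 5.9e-07), and Atf4, a stress-response factor, was called positive at 0.36 ± 0.086 (adjusted p = 0.00198), both per the authors' deposited table. Hnf4a and Cebpa, hepatocyte transcription factors, were not called at -0.28 ± 0.11 and 0.25 ± 0.16 (log2, SE, adjusted p = 0.0910 and 0.416) per the authors' deposited table.

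Zonation markers were read beside these results. Of 13 periportal genes other than members, 3 (23.1%) were called negative and 0 positive per the authors' deposited table. Of all tested genes 2.90% were called negative, and of the abundant ones 5.51%. Among the 13 periportal genes, 12 were negative in sign, and the median log2 fold change was -0.41. Called were the gluconeogenic gene Pck1 at -1.62 ± 0.24, Hal, and Uroc1 of histidine breakdown at -0.41 ± 0.12 (log2, SE, adjusted p = 1.2e-08 for Pck1 and 0.0127 for Uroc1) per the authors' deposited table. The periportal genes Pigr and Cyp2f2 were not called at -0.20 ± 0.14 and -0.19 ± 0.26 (log2, SE, adjusted p = 0.465 and 0.764) per the authors' deposited table. The periportal and nitrogen release lists share 5 genes.

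Of 17 pericentral genes, 2 (11.8%) were called positive and 1 (5.88%) negative per the authors' deposited table (median 0.042). Beside them stand 3.67% and 2.90% of all tested genes, and 5.55% and 5.51% of the abundant ones. Tbx3 stood at 0.74 ± 0.17 (adjusted p = 0.00114), Rgn at 0.39 ± 0.10 (adjusted p = 0.00775) and Oat, which converts ornithine, at -0.46 ± 0.13 (adjusted p = 0.0122), log2 with SE, per the authors' deposited table. Glul, glutamine synthetase, which scavenges ammonia around the central vein, was not called at 0.32 ± 0.19 (log2, SE, adjusted p = 0.365), nor was Cyp2e1 at -0.027 ± 0.14 (adjusted p = 0.949), per the authors' deposited table. In whole liver, fewer cells of a type and less RNA per cell cannot be told apart.

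The tissue label was checked against defining markers. The 9 hepatocyte markers found summed to a mean normalized count of 1990903, while 5 Kupffer markers summed to 4796, 5 sinusoidal endothelial markers to 3130, 5 stellate markers to 4921, 5 cholangiocyte markers to 860.4, 5 lymphocyte markers to 29.2 and 4 adipocyte markers to 289.6, of which 288.2 was Lipe per the authors' deposited table. Of the 9 hepatocyte markers, 2 were called negative per the authors' deposited table, Ahsg at -0.64 ± 0.14 and Serpinc1 at -0.30 ± 0.078 (log2, SE, adjusted p = 0.00037 and 0.00596), 8 were negative in sign and the median was -0.24. Alb stood at -0.29 ± 0.21 (log2, SE, adjusted p = 0.484) per the authors' deposited table. Called negative there were 5.51% of the abundant genes and 2.90% of all tested genes. All 5 Kupffer markers were negative in sign with 1 called, Timd4 at -0.76 ± 0.26 (log2, SE, adjusted p = 0.0494) per the authors' deposited table. The median of the Kupffer markers was -0.61. All 5 endothelial markers were negative in sign (median -0.41) and all 5 cholangiocyte markers positive (median 0.43), with 0 called in either list per the authors' deposited table. Stellate markers were negative in 4 of 5 (median -0.14) and lymphocyte markers in 2 of 5 (median 0.14), with 0 called. An unadjusted p below 0.05 in the authors' deposited table was held by 4 Kupffer, 2 endothelial, 2 hepatocyte and 1 lymphocyte gene, all negative. It was also held by 1 adipocyte gene, Lipe, which was positive at 0.45 ± 0.17 (log2, SE). There were 0 stellate and 0 cholangiocyte genes. Such p-values were common, since the gene in place 2965 of the 16288 tested genes still had an unadjusted p of 0.0458 there. The part of zonation and of cell types in the members' values was not tested.

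**Figure D5:**
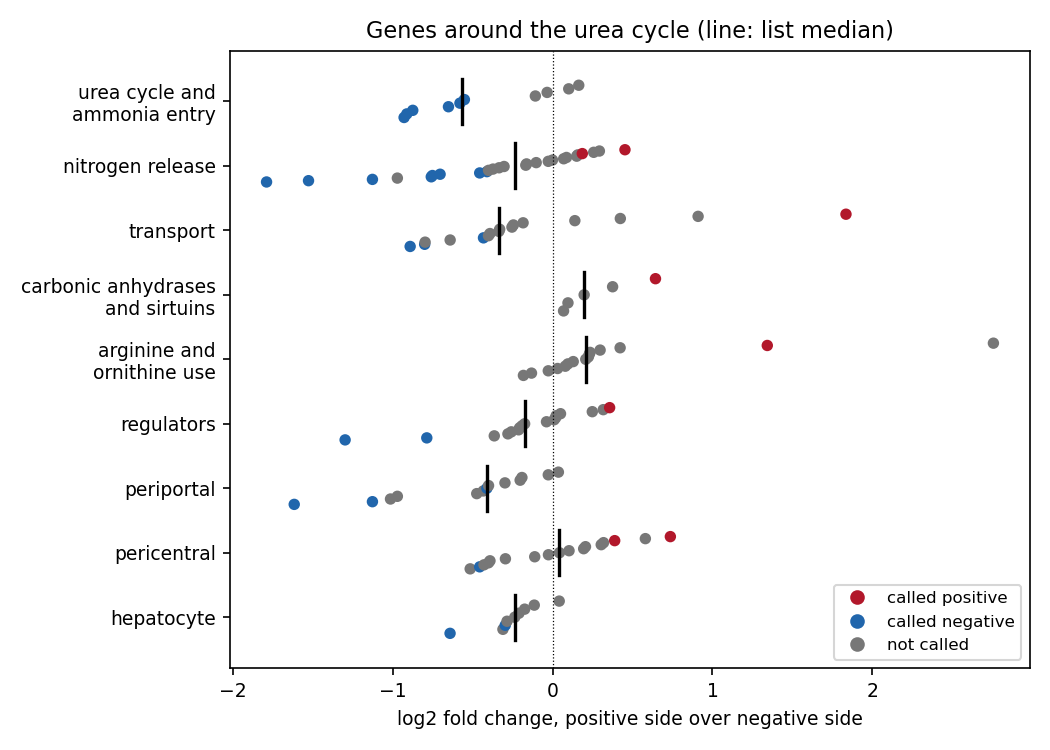
Log2 fold change (positive over negative side) of each tested gene of 9 lists per the authors' deposited table, with the list median as a black line, red for called positive, blue for called negative and grey for not called. The medians were -0.57 for the urea cycle group, -0.24 for nitrogen release, -0.33 for transport, 0.21 for arginine and ornithine use, -0.41 for periportal and 0.042 for pericentral genes.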

How the data were processed

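RNA sequencing was done on 16 mouse liver samples in 4 groups of 4. FastQC, Trimmomatic, HISAT2, HTSeq 0.11.1 and GRCm38 are listed, without role or order, in the submitters' processing notes. Per the file headers, the deposited table gives the authors' mean normalized count per gene (a signal), their log2 fold change with its SE (log2), a test statistic (score), and a p-value with its adjusted value. The sources used here state neither the tool nor the model nor the sides of that comparison. Another 16 value columns with library codes match no label and were not used, so no comparison between labelled groups, depth per sample or replicate spread could be computed. The deposited statistic equals fold change over SE, and the deposited adjusted p is the Benjamini-Hochberg value over 16288 genes.

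From these values, 95% normal intervals, counts per list, levels per kb (exons of GENCODE release M21, GRCm38, matched by identifier for 99.7% of genes) and motif matches were computed with Python 3.11.15, pandas 2.3.3 and scipy 1.17.1. The trend on GC content, log2 length and log2 mean count used splines of 4 degrees of freedom. The Benjamini-Hochberg adjustment, scaling and trend removal were tested on simulated data with independent genes. The Benjamini-Yekutieli adjustment was only checked against another implementation on the deposited p-values. Members and lists were chosen with earlier results of these data known. Named were all members, their listed relatives and, per other list, up to 4 called genes with the smallest p and up to 2 uncalled genes with the largest mean count, with Glul and Car5a. Of the listed symbols, Slc14a2, Rhcg, Tf and Lep had no row and were not analysed here. One further relative is not reported here.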

Additional observations from a re-analysis of the deposited data

How the results depend on the processing

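On the members, 10 settings other than the reported one were tried, under which 0 called genes changed direction and 0 uncalled genes became called. Only removal of the trend and shifts of the median log2 fold change to 0 altered the fold changes themselves. A direction could change only under those settings. A lower threshold or a stricter adjustment could add no call. The number of members called was 6 and fell to 3 with Bonferroni adjustment (Cps1, Gls2 and Ass1). It fell to 2 with statistics divided by their scaled median absolute deviation (Cps1 and Gls2). It was 4 at an adjusted p below 0.01, with Benjamini-Yekutieli adjustment and after removal of the trend on GC content, length and mean count, and 6 under the other settings. Cps1 and Gls2 were called under all 10, with adjusted p up to 0.00644 and 0.00862. Of the 79 other pathway genes tested, 13 were called negative and 6 positive, beside 2.90% and 3.67% of all tested genes. With the statistic divided by its scaled median absolute deviation, 3 were called negative and 4 positive. The cause was not tested. The periportal count was 3 and became 1 there, and the nitrogen release count was 8 and became 2. The share of all tested genes called was counted only under the reported setting. Leaving out a replicate was not possible without values per sample. No paired analysis was possible because the library columns carry no replicate number and match no label. The precision of every value is the authors' SE, and the depth of single libraries is not known here.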

Other observations

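The cytosolic and mitochondrial aspartate aminotransferases, which interconvert aspartate and glutamate, were called in opposite directions per the authors' deposited table, Got1 at -1.79 ± 0.30 and Got2 at 0.19 ± 0.055 (log2, SE, adjusted p = 4.1e-07 and 0.0175). Got2 was named after its value was seen. The difference between them was not tested.

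Genes next to the members on the chromosome were looked at after the values had been seen. Of the 20 nearest protein-coding genes with an adjusted p, 1 on each side of each member, 1 was called negative and 1 positive per the authors' deposited table. Over all tested genes, 2.90% were called negative and 3.67% positive there. Gusb, 8209 bases from Asl, stood at -0.37 ± 0.12 (log2, SE, adjusted p = 0.0380) per the authors' deposited table. Erbb4, 800927 bases from Cps1, stood at 1.08 ± 0.29 (log2, SE, adjusted p = 0.00766) with a mean normalized count of 13.8, per the authors' deposited table. Crcp, whose gene starts 43 bases from that of Asl on the opposite strand, stood at -0.33 ± 0.13 (log2, SE, adjusted p = 0.125) per the authors' deposited table.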
